A study of Mus musculus with 4 samples.

Results

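Of 15864 autosomal protein-coding genes of 5 kb or longer, 33 were broadly marked with H3K36me3 in B6 germ cells only and 26 in KI germ cells only. A gene was taken as marked in one strain only when broad regions of that strain covered at least 50% of its span, from annotated start to annotated end, and those of the other strain covered at most 10%. B6-marked genes were 0.208% of the genes examined and KI-marked genes 0.164%. These genes were therefore chosen by the measured coverage itself, and the coverage values below describe them without testing them. The label "broadly marked" holds only in part, because coverage was below 60% in 22 of the B6-marked and 16 of the KI-marked genes, and the mark was a single region in 11 and 13 of them.

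B6 is the inbred strain C57BL/6J, and KI is B6.Cg-Prdm9<tm1.1Kpgn>/Kpgn, a knock-in on the B6 background. Its Prdm9 carries the last exon of the CAST/EiJ allele, which encodes the zinc fingers that recognise DNA, so the strains differ by design in where PRDM9 binds. The labels call the cells spermatocytes and give an age of 14 dpp for the chromatin immunoprecipitates and 15 dpp for the inputs, and they name the antibody target as H3K36me6, where the study's methods have H3K36me3. No drug or other treatment is named for either strain. Each strain has 1 list of broad regions and 1 of narrow peaks, called on the merged reads of its biological replicates, so replicate error cannot be given for any value, and the strains were compared without p-values. The lists hold positions only, and the depth at a single region is unknown. By the study's methods the merged KI data were the deeper, and the part of depth in the results was not tested.

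H3K36me3 is placed by SETD2, which travels with elongating RNA polymerase II, so the mark lies over the bodies of transcribed genes and is usually scarce at their starts. In spermatocytes PRDM9 places the same mark, together with H3K4me3, on nucleosomes at recombination hotspots. The testis at this age holds spermatogonia and cells in meiotic prophase, with Sertoli cells as the somatic support of the seminiferous tubule. The region lists do not tell the mark of one enzyme from that of the other, or the chromatin of one cell type from that of another.

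The DNA under the narrow peaks of the most unequally marked genes is shown first, since these peaks are the places of highest signal within the broad regions. The peaks are the first, in order of the difference between strains, of at most 300 bp that overlapped no annotated untranslated region. All are given on the forward strand of mm9, with CG dinucleotides in capitals. The B6 peaks lie in Ephx3, Apobec4 and Aard.
Ephx3, chr17:32325229-32325521: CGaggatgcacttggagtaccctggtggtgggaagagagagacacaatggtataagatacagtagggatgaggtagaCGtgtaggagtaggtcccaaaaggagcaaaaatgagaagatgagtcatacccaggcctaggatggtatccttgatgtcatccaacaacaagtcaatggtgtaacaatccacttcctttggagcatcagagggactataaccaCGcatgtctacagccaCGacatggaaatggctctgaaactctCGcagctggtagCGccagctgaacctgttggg
Apobec4, chr1:154600316-154600600: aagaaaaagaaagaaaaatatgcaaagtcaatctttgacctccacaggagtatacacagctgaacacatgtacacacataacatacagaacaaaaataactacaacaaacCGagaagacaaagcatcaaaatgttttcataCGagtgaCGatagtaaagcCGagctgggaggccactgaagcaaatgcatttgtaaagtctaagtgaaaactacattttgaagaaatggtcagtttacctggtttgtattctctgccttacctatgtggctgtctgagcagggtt
Aard, chr15:51873376-51873645: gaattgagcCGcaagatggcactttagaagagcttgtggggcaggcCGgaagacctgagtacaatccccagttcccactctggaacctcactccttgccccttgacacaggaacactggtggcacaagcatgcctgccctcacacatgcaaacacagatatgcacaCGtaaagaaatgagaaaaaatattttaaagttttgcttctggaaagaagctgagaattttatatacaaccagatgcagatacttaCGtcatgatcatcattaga
The KI peaks lie in Fbxo43, Il24 and Acot6.
Fbxo43, chr15:36090293-36090591: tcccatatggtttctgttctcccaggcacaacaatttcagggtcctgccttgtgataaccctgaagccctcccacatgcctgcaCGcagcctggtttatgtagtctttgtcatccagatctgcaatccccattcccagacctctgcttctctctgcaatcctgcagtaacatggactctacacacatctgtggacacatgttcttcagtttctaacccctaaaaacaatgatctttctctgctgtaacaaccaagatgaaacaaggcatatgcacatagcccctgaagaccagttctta
Il24, chr1:132781618-132781877: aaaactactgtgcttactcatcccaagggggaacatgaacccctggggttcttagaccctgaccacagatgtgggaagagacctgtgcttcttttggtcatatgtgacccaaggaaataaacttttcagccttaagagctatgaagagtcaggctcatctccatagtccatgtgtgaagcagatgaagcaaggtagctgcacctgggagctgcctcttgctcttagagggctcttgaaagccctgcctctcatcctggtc
Acot6, chr12:85444729-85444978: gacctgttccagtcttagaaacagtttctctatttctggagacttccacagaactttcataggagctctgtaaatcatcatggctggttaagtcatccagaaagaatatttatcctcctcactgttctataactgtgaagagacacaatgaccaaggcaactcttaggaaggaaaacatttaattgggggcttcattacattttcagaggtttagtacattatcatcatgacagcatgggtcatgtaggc
The Ephx3 peak overlapped an exon, and the other 5 lay in introns. The B6 peaks held 6 CG dinucleotides in Ephx3, 4 in Apobec4 and 4 in Aard. The KI peaks held 1 in Fbxo43 and 0 in Il24 and Acot6. These few peaks do not stand for the rest, since the median over all narrow peaks in members was 0.735 CG dinucleotides per 100 bp in B6 and 0.687 in KI, beside 0.725 and 0.739 over all autosomal peaks. All 142 B6 narrow peaks in B6-marked genes had a median GC content of 42.0%, beside 42.2% for 54236 autosomal B6 peaks. The 68 KI narrow peaks in KI-marked genes had 46.8%, beside 43.1% for 68189 autosomal KI peaks.

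The strains marked nearly the same genes. Of 8105 genes covered to at least 50% in B6, 93.4% reached that level in KI, and 0.407% (33 genes, Wilson 95% interval 0.290% to 0.571%) were at or below 10% there. Of 7723 such genes in KI, 98.0% reached that level in B6, and 0.337% (26 genes, 0.230% to 0.493%) were at or below 10%. The intervals cover counting error only. Genes at or above 50% in both strains numbered 7567 (47.7%), and those at or below 10% in both numbered 5069 (32.0%). The genes marked in one strain only lie at the margin of a nearly shared distribution, as the plot of coverage in B6 against coverage in KI shows.

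**Figure D1:**
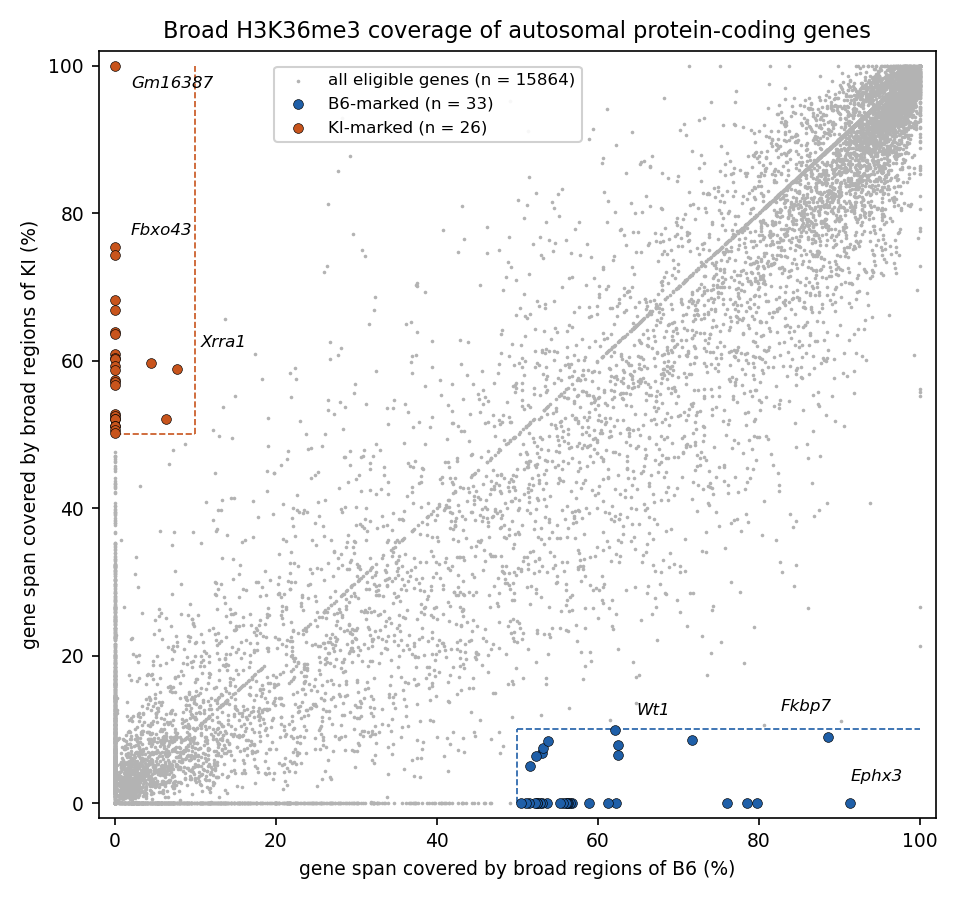
Each point is 1 gene, with the percent of its span in broad regions of B6 on the horizontal axis and of KI on the vertical axis. Blue points are the 33 B6-marked genes, orange points the 26 KI-marked genes, grey points all 15864 genes, and dashed lines the limits of 50% and 10%. Most genes lie near the diagonal, and most marked genes sit close to the 50% limit and at 0% in the other strain.

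Coverage of the members was low beside that of marked genes in general. The median coverage in B6 was 56.0% for the B6-marked genes (range 50.4% to 91.3%), whereas it was 93.9% for all 8105 genes at or above 50% in B6. In KI the median was 58.8% for the KI-marked genes (50.2% to 100%) and 92.6% for all 7723. Coverage stayed below 60% in 22 of 33 B6-marked and 16 of 26 KI-marked genes, and reached 75% in 5 and 2. The other strain had no broad region at all inside 23 of 33 B6-marked genes and 23 of 26 KI-marked genes. Just inside the 50% limit were Klf16 (50.4%), Lzts2 (51.1%) and Ccnd2 (51.4%) for B6, and Ankrd13d (50.2%), Barhl2 (50.5%) and 6430531B16Rik (51.1%) for KI. Just outside it were Ddit4l (49.0%), Hsd17b11 (48.2%) and B3gnt5 (47.8%) for B6, and Aurkc (48.7%), Ccdc13 (47.8%) and Chst1 (47.7%) for KI. At the 10% limit, Mme (9.84%), Fkbp7 (8.96%) and Wt1 (8.49%) had the highest KI coverage of the B6-marked genes, and Tm4sf19 (10.5%), Loxl2 (11.1%) and Kdelc2 (11.2%) fell just beyond it. Xrra1 (7.68%), Gsto2 (6.32%) and Pdcl2 (4.52%) had the highest B6 coverage of the KI-marked genes, and Celsr2 (12.1%), Catsperg2 (13.4%) and 4922502D21Rik (13.7%) lay beyond the limit.

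**Figure D2:**
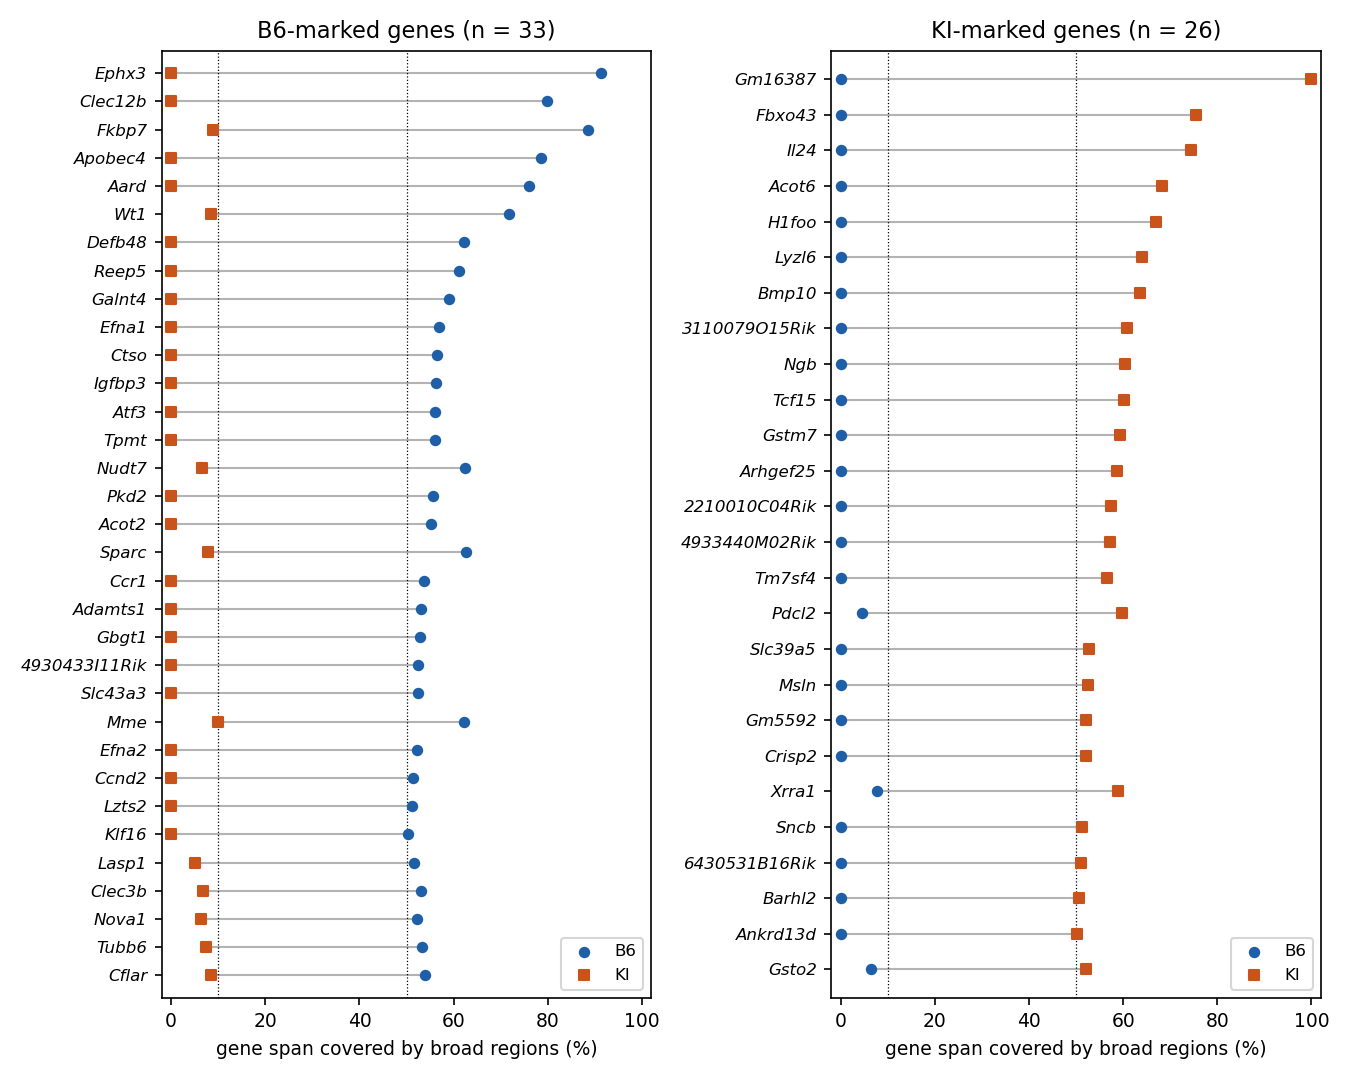
For each B6-marked gene (left) and KI-marked gene (right), the circle gives the percent of the gene span in broad regions of B6 and the square that of KI, and the grey line joins them. Genes are ordered by the difference, from 91.3 points in Ephx3 to 45.4 in Cflar on the left and from 100 points in Gm16387 to 45.7 in Gsto2 on the right. Dotted lines mark the limits of 10% and 50%.

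Among the B6-marked genes were 2 markers of Sertoli cells. Wt1 encodes the zinc finger transcription factor that Sertoli cells need, and it lies on the forward strand at chr2:104966686-105013773. Broad regions of B6 covered 71.7% of its 47.1 kb, in 5 regions with 10 narrow peaks, and those of KI covered 8.49%, in 2 short regions with 2 narrow peaks. The first B6 region began 8.31 kb after the gene start, and the last ran past the gene end. Aard, an alanine- and arginine-rich protein of Sertoli cells (chr15:51871653-51877267), was covered to 76.0% in B6 by a single region and to 0% in KI. In some alternatives the deposited regions were filtered by length before merging, so a gene with a longer merged region could be lost. When the shortest deposited B6 regions were dropped until both strains covered equal length, Aard was no longer B6-marked, while Wt1 remained so. The same held when only deposited regions of 3 kb or longer were used.

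The B6-marked genes that encode secreted or membrane proteins are given next, an arrangement made by hand that says nothing of their share among all genes. Sparc, a secreted matricellular protein (chr11:55208002-55233582, reverse strand), had 1 B6 region over 62.5% of its 25.6 kb and a KI region over 7.82%. The B6 region ran from 9.58 kb after the start through the gene end, and the KI region lay inside it. Mme, the membrane metallopeptidase neprilysin, was covered to 62.1% in B6 by 8 regions over 86.4 kb and to 9.84% in KI by 4 regions, each of which lay within a B6 region. Adamts1, a secreted metalloprotease of the matrix, was at 53.1% and 0% in B6 and KI. Igfbp3, which binds insulin-like growth factors, was at 56.3% and 0%. Both ephrins of the group, ligands of Eph receptor kinases, had no KI region, with B6 coverage of 56.8% for Efna1 and 52.2% for Efna2. Clec3b, the plasma protein tetranectin, was at 53.0% and 6.74%, but one of its regions was part of a B6 region of 37.5 kb that reached far beyond the gene. The C-type lectin receptor gene Clec12b was at 79.8% and 0%, the chemokine receptor gene Ccr1 at 53.7% and 0%, and the beta-defensin gene Defb48 at 62.2% and 0%. Pkd2, the channel subunit polycystin-2, was at 55.7% over 46.4 kb in B6 and at 0% in KI.

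Regulators of transcription, splicing, the cell cycle and cell death were also present. Ccnd2 encodes cyclin D2, a partner of the kinases that drive entry into S phase, and 4 B6 regions covered 51.4% of its 25.3 kb, beside 0% in KI. Nova1, a splicing regulator that binds RNA, was the longest member at 124 kb, with 17 B6 regions (52.3%) and 23 narrow peaks. KI had 3 narrow peaks in Nova1 and 6.44% coverage. Cflar, an inhibitor of caspase-8, was at 53.8% in B6 and 8.44% in KI. The stress-induced factor gene Atf3 was at 56.2% and 0%, and Klf16, of the Krüppel-like zinc finger family, at 50.4% and 0%. Nova1 and Cflar were thus covered in many separate stretches, whereas Sparc had one.

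The remaining B6-marked genes encode enzymes, transporters and structural proteins. Ephx3, an epoxide hydrolase (chr17:32320715-32326494, reverse strand), had the largest difference, 91.3% in B6 and 0% in KI, from 2 regions that both crossed a gene edge. Fkbp7, a prolyl isomerase of the endoplasmic reticulum, was at 88.6% and 8.96%. It was the only B6-marked gene without a B6 narrow peak inside it. Reep5, which shapes the endoplasmic reticulum, was at 61.2% and 0% with 6 narrow peaks. Nudt7, a peroxisomal nudix hydrolase, was at 62.4% and 6.46%, and Lasp1, an actin-binding protein, at 51.6% and 5.03%. Tubb6, a beta-tubulin, was at 53.2% and 7.50%, but one of its regions was part of a B6 region of 47 kb that reached far beyond the gene. Ctso (a cathepsin) was at 56.6%, Slc43a3 (a solute carrier) at 52.4% and Tpmt (thiopurine methyltransferase) at 56.0%, each with 0% in KI. Gbgt1 (52.8%), Lzts2 (51.1%) and 4930433I11Rik (52.4%) had no KI region either. Apobec4, of the cytidine deaminase family, was at 78.6% and 0%, and Galnt4, a glycosyltransferase that starts mucin-type sugar chains, at 59.0% and 0%. All the covered bases of Apobec4 and Galnt4 also lie in a larger gene, Rgl1 and Poc1b respectively, which were covered to at least 50% in B6 and to between 10% and 50% in KI. Neither Apobec4 nor Galnt4 was B6-marked when bases shared with another gene were left out.

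Some KI-marked genes with known functions in germ cells are given next, a choice made by hand that says nothing of their share among all genes. The lists of spermatogonial, meiotic prophase and spermatid genes described below held no KI-marked and no B6-marked gene. Fbxo43, which inhibits the anaphase-promoting complex during meiosis, lies on the reverse strand at chr15:36079815-36094639 and had a coverage of 75.5% in KI against 0% in B6. Its 3 KI regions began 2.64 kb after the gene start and reached past its end. Crisp2, a cysteine-rich secretory protein of the sperm head and tail, was covered to 52.0% of 42.3 kb by 4 KI regions with 10 narrow peaks, and to 0% in B6. The nearest B6 region to Crisp2 lay 113 kb away. Lyzl6, a lysozyme-like protein of sperm, was at 63.9% in KI, in 1 region of 5 kb, and at 0% in B6. Pdcl2, a phosducin-like protein, was at 59.7% in KI and 4.52% in B6, and the B6 coverage came from 1 region at the gene end. H1foo, the linker histone of oocytes, was at 66.9% and 0%, with a single KI region over the first 3.54 kb and the sequence before the start. Crisp2 was thus covered in several stretches, whereas Lyzl6 and H1foo each had a single one.

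The KI-marked genes given next were likewise arranged by hand, and the list of synaptic genes held none of them. Il24, a cytokine of the interleukin-10 family, was at 74.3% in KI and 0% in B6, with the nearest B6 region 88.7 kb away. Bmp10, a ligand of the heart, was at 63.6% and 0%. Tcf15, a helix-loop-helix factor of the somites, was at 60.2% and 0%, and Barhl2, a homeobox factor of the nervous system, at 50.5% and 0%. Ngb (neuroglobin) was at 60.3%, Sncb (beta-synuclein) at 51.1%, Msln (mesothelin) at 52.5%, Arhgef25 at 58.7% and Tm7sf4 (the fusion protein DC-STAMP) at 56.7%, each with 0% in B6. None of these genes had a broad region of B6 inside it, and apart from Tm7sf4 all were short, between 5.01 and 7.74 kb.

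The other KI-marked genes included enzymes, a zinc transporter and genes whose roles are not described here. Gm16387, on the reverse strand at chr7:46511994-46519904, had the largest difference of all, since 1 KI region of 10 kb covered its whole 7.91 kb and no B6 region touched it. Xrra1 was the longest KI-marked gene at 58.6 kb, with 8 KI regions (58.9%) and 11 narrow peaks, beside 2 B6 regions (7.68%) and 2 narrow peaks. Gstm7, a glutathione transferase, was at 59.2% in KI and 0% in B6. Gsto2, of the omega class of the same enzymes, was at 52.0% and 6.32%, and Slc39a5, a zinc importer, at 52.8% and 0%. All the covered bases of Gsto2 and Slc39a5 also lie in another gene, Wdr96 and Ankrd52 respectively. Wdr96 was at 20.3% in B6 and 29.7% in KI, and Ankrd52 was marked in both strains, at 72.0% and 79.1%. Neither Gsto2 nor Slc39a5 was KI-marked when bases shared with another gene were left out. The genes 3110079O15Rik (60.9%), 2210010C04Rik (57.4%), 4933440M02Rik (57.1%), Gm5592 (52.1%), 6430531B16Rik (51.1%) and Ankrd13d (50.2%) had no B6 region.

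A cluster of acyl-CoA thioesterase genes on chromosome 12 held 1 gene of each kind. Acot2, whose product hydrolyses fatty acyl-CoA in mitochondria (chr12:85328811-85334823), had a coverage of 55.3% in B6 against 0% in KI. Acot6, at the other end of the cluster (chr12:85441604-85452299), had 68.2% in KI against 0% in B6. The 2 genes lie 107 kb apart on the same strand. Between them, Acot1 was at 36.7% in B6 and 0% in KI, Acot4 was at 0% in B6 and 31.5% in KI, and Acot3 and Acot5 were at 0% in both. The side of the cluster near Acot2 thus carried B6 regions and the side near Acot6 carried KI regions. The genes of this cluster are related in sequence, and 13.3% of 100 bp tiles of Acot2 had no unique best match in mm9, whereas none of the tiles of Acot6 lacked one.

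Coverage along the gene differed in shape between the groups. In B6-marked genes the mean B6 coverage was 16.4% in the first decile of gene length, rose to 84.1% in the seventh decile and was 73.9% in the last. In KI-marked genes the mean KI coverage was 34.3% in the first decile, highest in the fifth at 75.9%, and 51.8% in the last. In genes marked in both strains, the mean went from 53.0% in the first decile to 95.8% in the last for B6, and from 49.4% to 94.8% for KI. The sequence 3′ of the gene's midpoint was covered more than that 5′ of it in 28 of 33 B6-marked genes (84.8%), beside 88.0% of genes marked in both strains measured in B6. It was covered more in 12 of 26 KI-marked genes (46.2%), beside 87.6% of genes marked in both measured in KI. Among the KI-marked genes, 13 were covered more 5′ of the midpoint and 1 equally. The same contrast was seen within length classes, with 12 of 14 B6-marked against 8 of 17 KI-marked genes under 10 kb, and 16 of 19 against 4 of 9 at 10 kb or longer. These counts describe the members, and the difference between the groups was not tested.

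**Figure D3:**
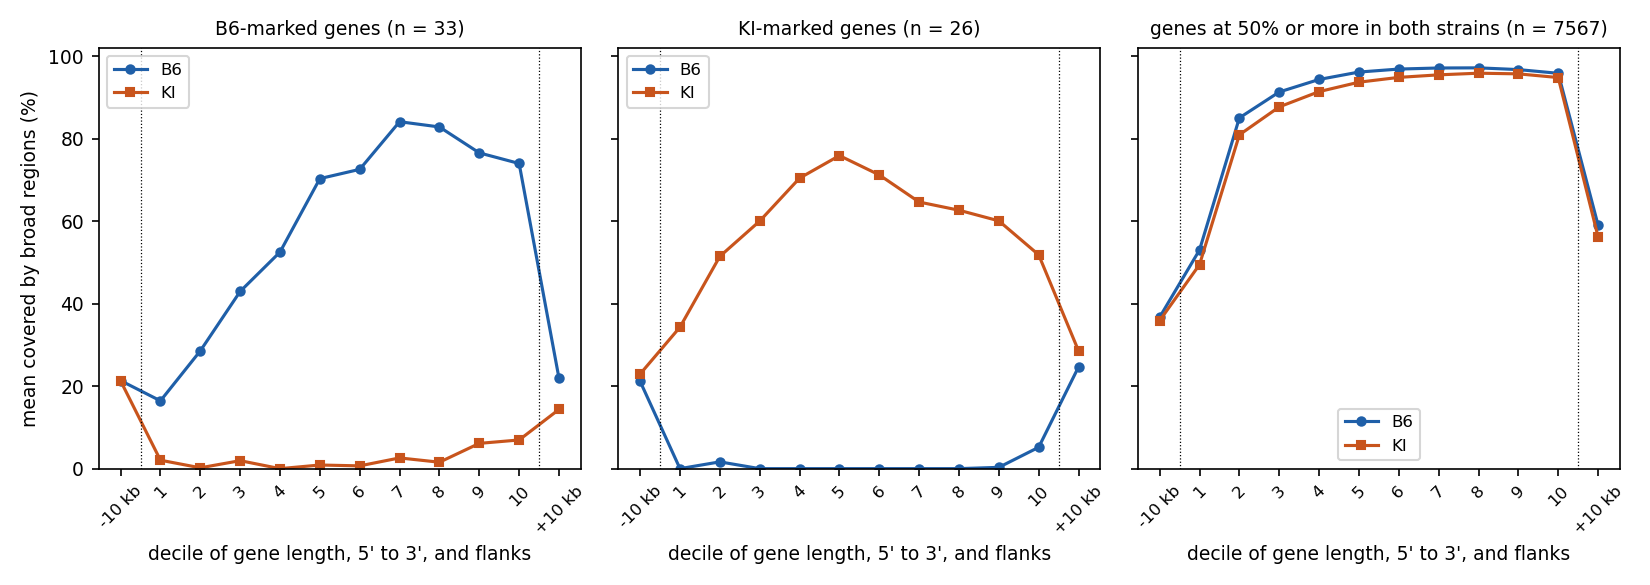
Mean percent of each decile of gene length, from 5′ to 3′, and of the 10 kb on either side that lay in broad regions of B6 (circles) or KI (squares), for B6-marked genes (left), KI-marked genes (middle) and genes at or above 50% in both strains (right). Coverage peaks at 84.1% in the seventh decile for B6-marked genes in B6 and at 75.9% in the fifth for KI-marked genes in KI.

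Outside the genes the mean coverage of the strains lay closer together. In the 10 kb upstream of B6-marked genes the mean coverage was 21.3% in both strains, and in the 10 kb downstream it was 21.9% in B6 and 14.4% in KI. Upstream of KI-marked genes it was 22.9% in KI and 21.2% in B6, and downstream 28.5% in KI and 24.6% in B6. The medians still differed downstream, at 13.5% in B6 against 0% in KI for B6-marked genes and 19.8% in KI against 0% in B6 for KI-marked genes. Upstream the medians were 0% in both strains for B6-marked genes, and 5.67% in KI against 0% in B6 for KI-marked genes. Of the members, 24 of 33 B6-marked and 17 of 26 KI-marked genes had a region that crossed a gene edge. The same share was not computed for other genes, so these counts have no background beside them. The nearest eligible gene was marked in both strains for 14 of 33 B6-marked and 10 of 26 KI-marked genes, and unmarked in both for 11 and 10, close to the shares of 47.7% and 32.0% that these classes had among all genes. For no member was the nearest gene itself marked in one strain only (0 of 33, Wilson 95% upper bound 10.4%, and 0 of 26, 12.9%), but with only 59 such genes among 15864 this is near the background. B6-marked genes were spread over 18 of 19 autosomes and KI-marked genes over 13.

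**Figure D4:**
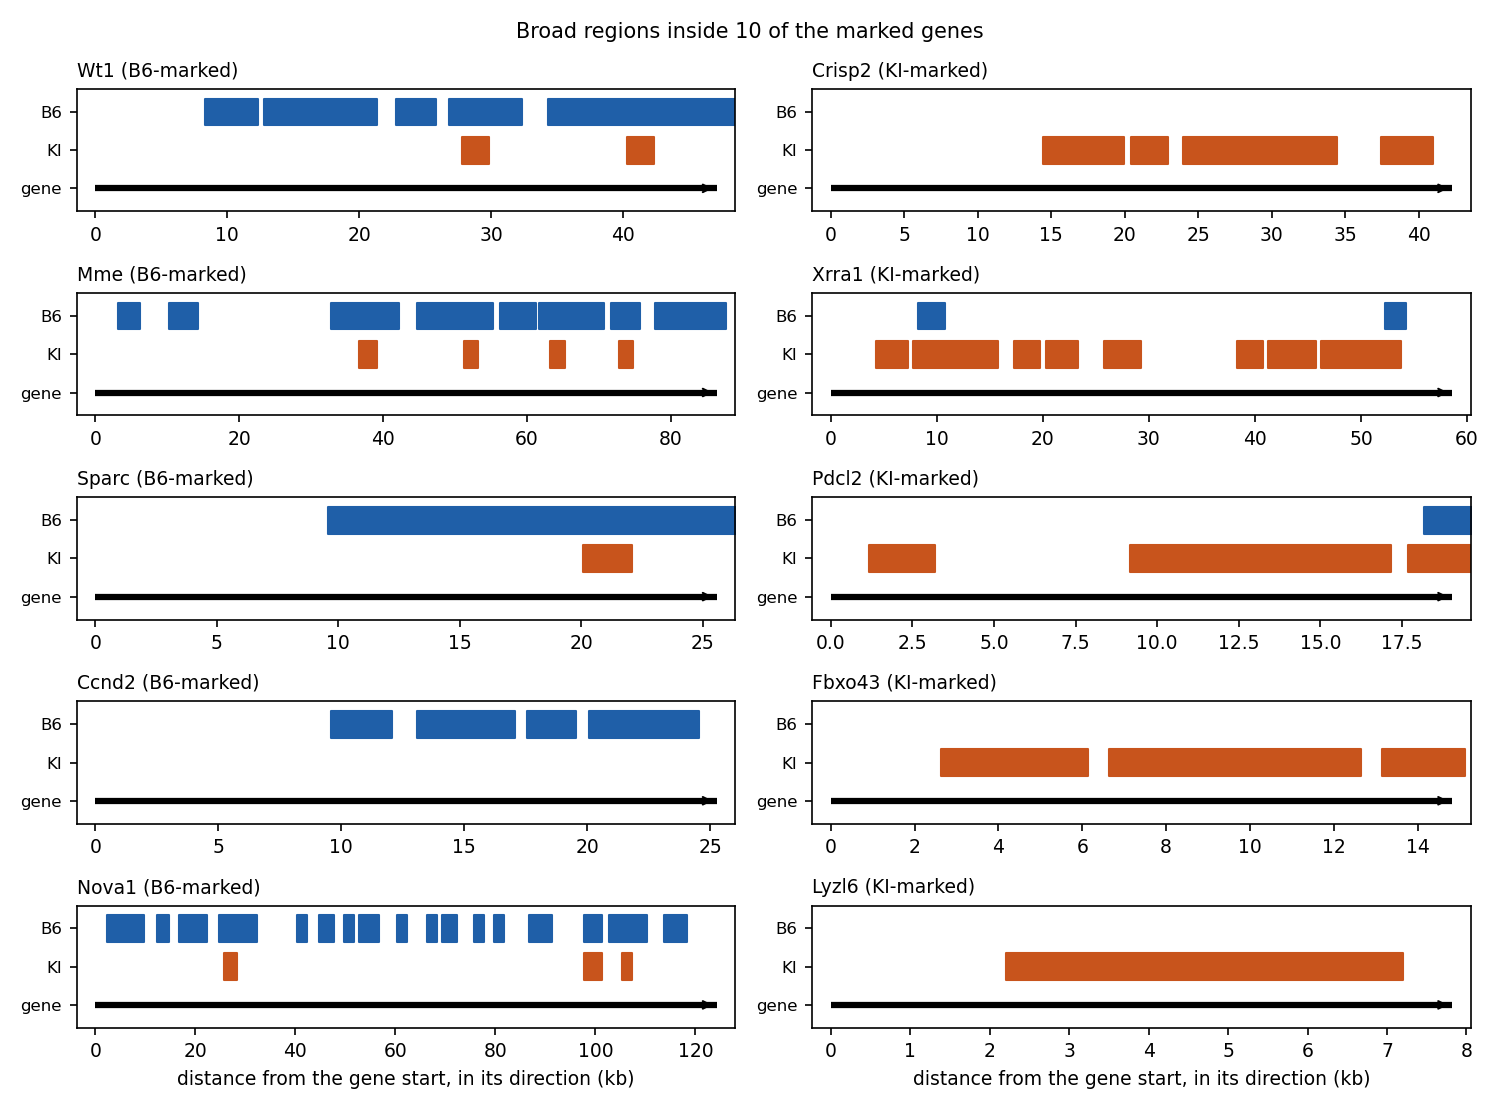
Broad regions of B6 (blue) and KI (orange) inside 5 B6-marked genes (left) and 5 KI-marked genes (right), against the distance in kb from the gene start in the direction of transcription. The black arrow is the gene. Nova1 (17 B6 regions), Mme (8) and Xrra1 (8 KI regions) were covered in patches, Sparc and Lyzl6 by a single region, and the first part of Wt1, Sparc, Ccnd2 and Crisp2 had no region.

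Broad regions within members were few and short. The median number per gene was 2 (range 1 to 17) in B6-marked genes and 1.5 (1 to 8) in KI-marked genes, and the longest covered stretch inside a gene had a median of 5 kb and 3.52 kb. Narrow peaks of the marking strain lay in 32 of 33 B6-marked genes (142 peaks) and in all 26 KI-marked genes (68 peaks). Narrow peaks of the other strain lay in 6 B6-marked genes (14 peaks) and 2 KI-marked genes (3 peaks). Since narrow peaks lie within broad regions, these counts are tied to the rule. The median number of marking-strain peaks per gene was 2 in each group. In genes marked in both strains it was 1 in B6 and 2 in KI, with a lower quartile of 1 in each. Over all genes the median was 1 in each strain, with a lower quartile of 0. Per 10 kb of gene, the median number of marking-strain peaks was 2.04 in B6-marked genes and 1.90 in KI-marked genes. In genes marked in both strains it was 0.587 in B6 and 0.798 in KI. These rates are tied to the rule as well, and to the shorter length of the members. A single broad region with a single narrow peak was the whole mark in 2 of 33 B6-marked and 10 of 26 KI-marked genes. Neither this count nor the number and length of broad regions was computed for other genes, so they have no background here. Lyzl6 had 1 region with 2 narrow peaks, while Il24, H1foo and Bmp10 had 1 of each. Whether these narrow peaks are PRDM9 hotspots was not tested, since hotspot positions were not used here.

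Members were shorter than marked genes in general, but length is tied to the rule. Coverage is a percent of the gene span, so a single region of a few kb can carry a short gene past 50%. The median length was 10.5 kb for B6-marked genes (range 5.09 to 124) and 6.99 kb for KI-marked genes (5.01 to 58.6), beside 26.0 kb for genes marked in both strains and 24.0 kb for genes unmarked in both. All genes at or above 50% in one strain, whatever the other, had a median length of 26374 bp in B6 and 25752 bp in KI. The 300 bp around the gene start, from 250 bp before to 50 bp after, held a median of 10 CG dinucleotides in B6-marked genes and 7 in KI-marked genes. In genes marked in both strains the median was 22, and in genes unmarked in both it was 5. The windows ranged from 0 to 40 in B6-marked genes, with Klf16 at 40 and Igfbp3 at 37, and from 0 to 52 in KI-marked genes, with Barhl2 at 52 and Fbxo43 at 36. Gene GC content was 46.7% and 48.0%, beside 44.8% for genes marked in both. Reads without a unique position had been discarded, and tiles of 100 bp without a unique best match had a median of 0% in both groups. They exceeded 10% in Ccr1 (18.2%), Acot2 (13.3%) and Crisp2 (15.6%), and the part of this in their coverage was not tested.

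Lists of marker and pathway genes place the members among related genes. The lists were put together with earlier results of these data known, so their counts describe and do not test. Over 15801 gene symbols, 39.0% were covered more in B6 and 21.4% more in KI. By 20 points or more, 861 of them were higher in B6 and 376 higher in KI. The list of Sertoli cell genes had 15 eligible members, of which 12 were covered more in B6, 2 more in KI and 1 at 0% in both, and the median coverage was 43.5% in B6 and 4.50% in KI. Gene by gene the median difference was smaller, 11.3 points in favour of B6. Besides Wt1 and Aard, Sox9 (the factor that commits Sertoli cells) was at 45.2% in B6 and 0% in KI. The inhibin subunit gene Inhbb was at 43.6% and 0%, Nr5a1 at 38.0% and 6.05%, and the secreted chaperone gene Clu at 29.7% and 0%. The follicle-stimulating hormone receptor gene Fshr was at 3.24% in B6 and 4.50% in KI, and Dhh at 0% in both. Of extracellular matrix genes, 24 of 30 were covered more in B6 and 2 more in KI, with medians of 18.4% and 7.61% and a median difference per gene of 5.57 points. Sparc was the only member there, and Thbs1 (84.3% in B6, 29.5% in KI), Col1a1 (74.3%, 26.8%), Lamb1 (66.8%, 25.6%) and Lama1 (44.7%, 9.57%) showed differences of over 30 points. Of spermatogonial genes, 9 of 13 were covered more in B6 and 1 more in KI, with a median difference per gene of 5.37 points. Zbtb16, a factor of undifferentiated spermatogonia, was at 69.1% in B6 and 37.2% in KI, and was the only gene of that list to differ by 20 points or more. Coverage of other genes in that list was uneven, with Gfra1 at 0% in B6 and 5.90% in KI, and Ret and Lhx1 at 0% in both. Etv5 was at 46.4% in B6 and 28.2% in KI, Lin28a at 24.2% and 12.9%, and Sall4 at 46.8% in both. Dmrt1 and Nr5a1 each stand in 2 of the lists.

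Genes of spermatids showed the opposite direction. This was not particular to them, since more genes were covered more in KI than in B6 also in 3 other lists. These were the endothelial, the macrophage and blood cell, and the synaptic genes, with counts given below. Of 28 eligible genes, 15 were covered more in KI and 8 more in B6, with medians of 4.44% in B6 and 17.8% in KI. The median difference per gene was small, -1.28 points as B6 minus KI, and 7 genes were higher by 20 points or more in KI against 1 in B6. Over all 15801 gene symbols these counts were 376 in KI and 861 in B6. The dynein genes Dnahc1 (32.2% in B6, 66.8% in KI) and Dnaic1 (28.1%, 61.7%) and the sperm surface gene Adam2 (26.8%, 60.2%) reached 50% in KI but were above 10% in B6. The acrosomal protease gene Acr was at 0% in B6 and 32.0% in KI, and the outer dense fibre gene Odf1 at 0% and 26.5%. The acrosomal gene Acrv1 went the other way, at 100% in B6 and 21.3% in KI. None of the KI-marked genes is in the spermatid list, and Crisp2 and Lyzl6 were not listed. Meiotic prophase genes, which mark the labelled cell type, were covered in both strains, with 36 of 38 at or above 50% in each and medians of 97.6% in B6 and 97.0% in KI. With 59 members among 15864 genes, a short list is likely to hold none. The lists of peritubular myoid, endothelial and macrophage and blood cell genes held no member, with 4 of 11, 3 of 14 and 3 of 12 genes covered more in B6 and 4, 7 and 4 more in KI. Leydig cell genes had 5 of 13 covered more in B6 and 1 more in KI, and the steroid enzyme genes Cyp17a1, Hsd3b1 and Hsd17b3 were at 0% in both strains. Others of that list were well covered, with Star at 100% and Fads1 at 88.4% in both strains, and Scarb1 at 88.3% in B6 and 71.2% in KI. Pdgfra was at 34.3% in B6 and 9.80% in KI, and 2 genes of the list were higher by 20 points or more in B6 against 0 in KI. Genes of H3K36 and H3K4 methylation (13 of 30 more in B6, 4 more in KI), synapses (18 and 37 of 61), muscle (9 and 8 of 24) and housekeeping (3 and 2 of 21) held no member either. In cells from a tissue, more cells of a type and more mark per cell cannot be told apart, and the part of cell composition in the members was not tested.

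**Figure D5:**
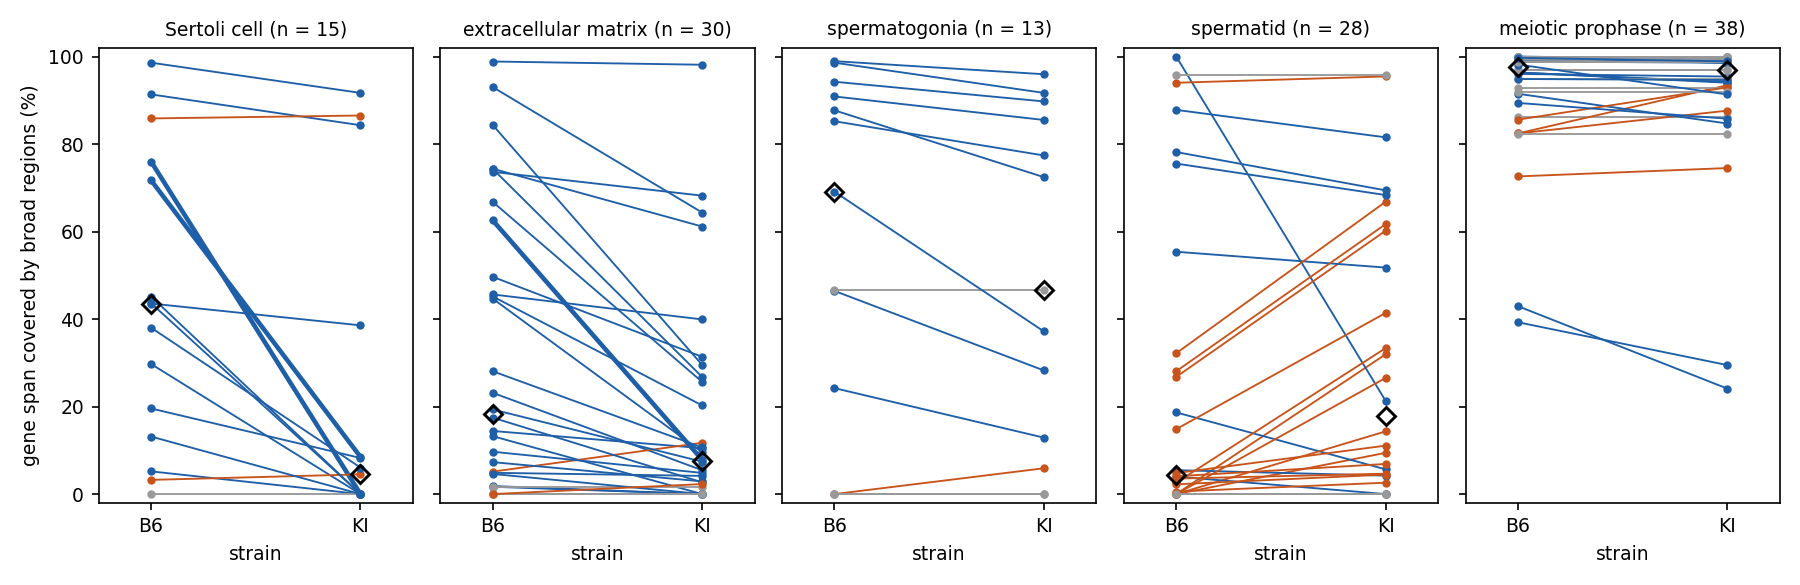
Percent of the gene span in broad regions of B6 and KI for each gene of 5 lists, joined by a line that is blue where B6 is higher, orange where KI is higher and grey where they are equal. Thick lines are the B6-marked genes Wt1, Aard and Sparc, and open diamonds are medians. Sertoli cell and matrix genes mostly fall from B6 to KI, several spermatid genes rise, and most meiotic prophase genes stay near 100%.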

How the data were processed

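The authors carried out H3K36me3 ChIP-seq on B6 and KI germ cells. Chromatin was fragmented with MNase, and 100 bp reads were trimmed with trimmomatic and aligned to mm9 with BWA. Reads without a unique position were discarded, 2 biological replicates per strain were merged, and ZINBA called regions against the input of the strain. The deposited files, 2 lists per strain, hold the chromosome, start and end of broad (unrefined) regions and narrow (refined) peaks, in base pairs. They hold no counts or scores, so the depth per region is unknown.

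Positions were taken as 1-based, with both ends belonging to the region. Regions were made unique and merged, and the covered percent of each gene span was computed in Python 3.11.15 (pandas 2.3.3, numpy 2.4.6). Genes and sequence came from GENCODE vM1 and NCBIM37, which is mm9. Coverage was checked against bedtools 2.31.1 with equal results for 15864 of 15864 genes in each strain, and was tested on simulated data, where 200 of 200 genes were recovered exactly. Uniqueness was measured with tiles of 100 bp matched to mm9 by minimap2 2.31-r1302, at steps of 200 bp in members and 2000 bp in other genes. Intervals are Wilson 95% intervals from scipy 1.17.1. A soft-masked share was not computed, since the sequence used has no lower case.

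Members and lists were chosen with earlier results of these data known. Genes were named when they had one of the 8 largest differences or 8 greatest lengths per strain, stood in a list, or lay next to a limit (3 genes on each side). The other members are named for completeness. The 10 alternatives changed the limits, gene length, gap bridging, overlapping genes, region length, equal covered length and the X chromosome.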

Additional observations from a re-analysis of the deposited data

How the results depend on the processing

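The numbers of members depended on the limits. With a limit of 75% in the marking strain, 5 B6-marked and 2 KI-marked genes were left, in a ratio of 2.50, and all were among the members. In this setting 80.0% of the B6-marked genes held a B6 narrow peak, and their median length was 6.99 kb. With up to 25% allowed in the other strain there were 82 B6-marked genes and the ratio was 2.16. With 0% required there, 100% of the B6-marked genes held a narrow peak. For genes of 20 kb or longer the numbers were 11 and 4 and the ratio 2.75, the median lengths were 39.8 and 31.5 kb, and 100% of the B6-marked genes held a narrow peak. For genes of 1 kb or longer the numbers were 84 and 97, so the ratio reversed to 0.866. The median lengths were then 4.08 and 3.12 kb, and the shares with a narrow peak 79.8% and 78.4%. With deposited broad regions of 3 kb or longer only, chosen before merging, there were 52 B6-marked genes. Of these, 10 were members of the main set of 33, and 12 of the 26 KI-marked genes were kept. A gene with a long merged region could thus be lost, such as Tpmt, with 1 merged region of 13 kb. When the shortest deposited B6 regions were dropped, again before merging, until both strains covered equal length, 19 B6-marked genes were left. The ratio then reversed to 0.543. Which strain has more such genes therefore depends on the choice of rule. Bridging gaps, leaving out bases shared with another gene and adding the X chromosome moved none of the results by more than the limits set for them, and the share of members whose nearest gene was a member stayed within its interval throughout. No paired analysis was possible because each strain has 1 pooled list, and for the same reason no replicate could be left out.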

Other observations

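Genes outside the rule showed the same kinds of difference. Of 649 X-linked protein-coding genes of 5 kb or longer, 2 met the B6 limits and 1 the KI limits. Kctd12b had a coverage of 75.6% in B6 against 0% in KI. Xlr5c, of the X-linked lymphocyte-regulated family, had 57.2% in B6 against 7.60% in KI, and Gpr119, a receptor for lipid amides, had 63.9% in KI against 0% in B6. Of 3742 autosomal genes of 1 to 5 kb, 51 met the B6 limits and 71 the KI limits. Among them Tssk4, a kinase of the testis, was at 0% in B6 and 100% in KI, and the metallothionein gene Mt1 was at 58.6% in B6 and 0% in KI. These short genes were picked out after their values were seen.

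Large differences also occurred in genes that missed a limit. Loxl2, which cross-links collagen, was at 90.2% over 86.7 kb in B6 and at 11.1% in KI, and Col10a1, a collagen, at 100% in B6 and 26.6% in KI. In the other direction, Cyp11b1, a steroid hydroxylase, was at 28.2% in B6 and 92.9% in KI, and Ptchd3, a patched-domain protein, at 29.3% and 87.8%.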
